A study of Mus musculus with 6 samples.

Results

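The cornified envelope genes of the epidermal differentiation complex, a gene cluster on chromosome 3, were examined in RNA sequencing data from epidermal cells of mouse embryos at E18.5, shortly before birth. They were chosen by name and position: every gene of the deposited table on chromosome 3 whose symbol began with Lce or Sprr and a digit, together with Lor, Ivl, Crct1 and the S100-fused genes Flg2, Hrnr, Rptn, Tchh, Tchhl1 and Crnn. This gave 46 of the 24354 genes of the table. They were 21 Lce genes (14 Lce1, 6 Lce3 and Lce6a), 16 Sprr genes (2 Sprr1, 12 Sprr2, Sprr3 and Sprr4), 6 S100-fused genes, Lor, Ivl and Crct1. Flg was not analysed here.

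There were 3 samples homozygous for Pik3ca H1047R, called mutant here, and 3 wild-type (WT) samples. H1047R is an activating change in the catalytic subunit of phosphoinositide 3-kinase. All 6 samples carried the strain label C57BL6 and came from epidermal cells that flow cytometry sorted for high surface α6 integrin, a receptor subunit that fixes basal keratinocytes to the basement membrane. The labels do not name a promoter or Cre line for the allele. Nor do they state whether samples within a group are separate embryos. The p-values set the difference between groups against the spread within groups, and that spread can be technical only.

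As keratinocytes leave the basal layer and reach the granular layer, they build the cornified envelope, a shell of proteins that transglutaminases cross-link beneath the plasma membrane. Involucrin is laid down early as a scaffold, loricrin makes up much of the mature shell, the small proline-rich (Sprr) proteins bridge other envelope proteins, and late cornified envelope (Lce) proteins join late. The S100-fused proteins carry an S100 calcium-binding start and long repeats, and bind keratin filaments or join the envelope. These genes are known for their activity in differentiating keratinocytes, whereas the sort selected for a basal surface marker.

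Mutant libraries held less mRNA of 9 of the 11 Lce genes tested, of Lor and of Crct1 than WT libraries. Of these 11, Lce6a, Lce1e, Lce1f and Lce1i averaged under 1 FPKM in mutant libraries and were tested only through their WT values. Of the 11 Sprr genes tested, 1 fell, 1 rose and 9 did not pass the test. Over all genes tested, 22.8% fell and 23.2% rose. Summed over the 21 Lce genes, mutant libraries held 11.7, 18.4 and 28.6 FPKM, against 63.5, 33.9 and 66.0 FPKM in WT libraries. Every mutant sum lay under every WT sum. In bulk RNA, fewer cells of a type and less RNA per cell cannot be told apart. Sprr2k fell to 2.67 ± 0.994 FPKM in mutant libraries, against 21.6 ± 1.25 FPKM in WT libraries (SD, n = 3 each), 8.11-fold lower by mean. Its neighbour Sprr1b rose to 54.3 ± 8.07 FPKM in mutant libraries, against 32.4 ± 9.35 FPKM in WT libraries (SD, n = 3 each). Sprr1a, at the highest level of all 46 genes, did not pass the test.

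FPKM are fragments per kilobase of transcript, scaled by a library total, so levels of different genes can be compared per length. Each gene that averaged 1 FPKM or more across the 6 libraries was tested with limma on log2(FPKM + 1), and a gene was called where its p-value, adjusted over all 11385 genes tested, was under 0.05. Log2 fold changes below are mutant minus WT on that scale, where changes of low genes come out too small. Of the 46 genes, 27 were tested, 14 lay under 1 FPKM on average, and 5 were listed at 0 in all 6 libraries. Of the 27, 12 fell (44.4%) and 2 rose (7.41%), whereas 22.8% of all genes tested were called lower and 23.2% higher, 46% in all. The 3 values of each group did not overlap for 10 genes that were lower and 3 that were higher in mutant libraries; over all genes tested, the shares were 26.9% and 29.1%. The median log2 fold change was -0.60 over the 27 and 0.01 over all genes tested. Lce6a, Lce1e, Lce1f and Lce1i averaged under 1 FPKM in mutant libraries and passed the filter through the WT libraries, so these shares describe the tested genes and not all 46.

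The count of genes that rose was 1 without mutant replicate 1, 3 without mutant replicate 2 and 4 without WT replicate 1.

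**Figure D1:**
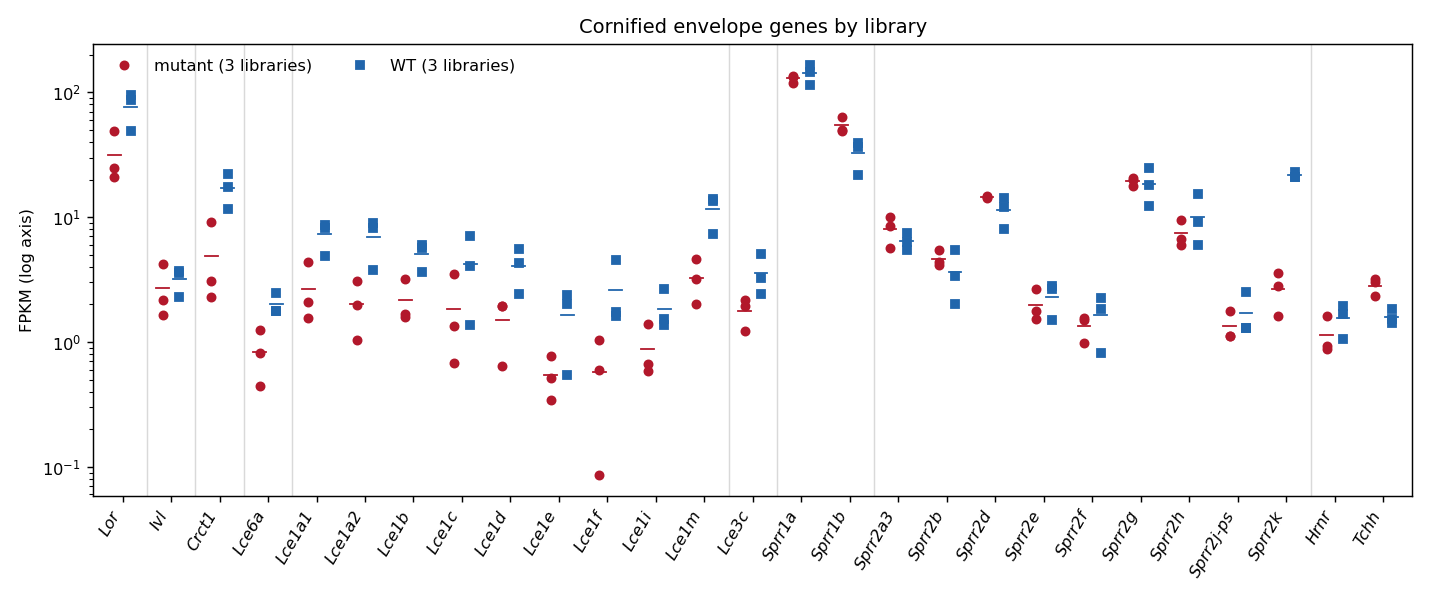
FPKM (log axis) of the 27 tested genes in each library, genes grouped by subfamily and not in chromosome order. Mutant and WT libraries are separate points at each gene. Mutant points lie under WT points for Sprr2k and for Crct1 and Lce1m, and over them for Sprr1b and Tchh.

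Sprr2k, Sprr1b, Sprr1a, Lor and Lce1m were picked with their values known, and Sprr2h stands for the Sprr2 genes that did not pass the test. Their promoters are printed here as the 250 bases before the RefSeq start (build GRCm38.p6), 5′ to 3′ on the strand of the gene. Capitals mark the letters TGANTCA, the AP-1 site recognised by Jun and Fos dimers, and TATAAA, the TATA box.
Sprr2k, chr3:92432332-92432581, plus strand: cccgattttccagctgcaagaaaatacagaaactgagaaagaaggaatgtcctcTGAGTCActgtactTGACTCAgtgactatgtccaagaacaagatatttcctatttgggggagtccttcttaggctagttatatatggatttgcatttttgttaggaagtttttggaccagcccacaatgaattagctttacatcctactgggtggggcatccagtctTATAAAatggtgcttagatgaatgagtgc
Sprr2h, chr3:92385435-92385684, plus strand: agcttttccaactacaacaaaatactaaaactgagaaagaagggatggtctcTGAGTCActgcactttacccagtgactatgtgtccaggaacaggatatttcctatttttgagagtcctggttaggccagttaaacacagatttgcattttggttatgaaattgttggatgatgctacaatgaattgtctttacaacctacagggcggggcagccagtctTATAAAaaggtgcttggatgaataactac
Sprr1b, chr3:92438780-92439029, minus strand: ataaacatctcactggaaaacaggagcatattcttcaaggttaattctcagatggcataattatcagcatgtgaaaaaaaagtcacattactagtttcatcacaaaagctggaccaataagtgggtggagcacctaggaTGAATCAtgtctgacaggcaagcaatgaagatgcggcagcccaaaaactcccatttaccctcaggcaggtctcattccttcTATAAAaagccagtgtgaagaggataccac
Sprr1a, chr3:92485882-92486131, minus strand: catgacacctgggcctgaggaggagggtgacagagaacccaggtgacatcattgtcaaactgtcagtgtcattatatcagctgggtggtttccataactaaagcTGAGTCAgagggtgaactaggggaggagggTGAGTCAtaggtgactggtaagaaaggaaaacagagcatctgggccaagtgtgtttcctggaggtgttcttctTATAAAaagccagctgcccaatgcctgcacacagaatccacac
Lor, chr3:92083143-92083392, minus strand: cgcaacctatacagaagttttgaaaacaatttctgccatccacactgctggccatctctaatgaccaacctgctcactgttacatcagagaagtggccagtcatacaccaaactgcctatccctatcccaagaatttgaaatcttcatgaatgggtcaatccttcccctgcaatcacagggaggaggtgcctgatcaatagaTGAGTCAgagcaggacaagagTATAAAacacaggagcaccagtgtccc
Lce1m, chr3:93019062-93019311, minus strand: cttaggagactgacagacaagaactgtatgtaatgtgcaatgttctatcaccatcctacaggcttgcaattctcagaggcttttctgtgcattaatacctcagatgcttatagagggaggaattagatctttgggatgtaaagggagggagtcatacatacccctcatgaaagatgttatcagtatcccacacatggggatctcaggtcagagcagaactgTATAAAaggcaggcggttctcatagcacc

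The promoters of Sprr2k and Sprr2h both held an AP-1 match near their 5′ end and a TATA box near the start, and that of Sprr2k held another AP-1 match just downstream. The Lor promoter held its AP-1 match close to its TATA box, and the Lce1m promoter held a TATA box and no AP-1 match.

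The Lce1 genes resemble each other to varying degrees, with Lce1m the least alike. Coding sequences were 92.6% identical between Lce1a1 and Lce1a2, 86.2% between Lce1a1 and Lce1b and 74.9% between Lce1a1 and Lce1d. The beginnings of the coding sequences of 4 of them, from the GENCODE M21 transcripts, are printed to show how alike these stretches are. Capitals mark a base that differs from Lce1a1. All 4 genes lie on chromosome 3.
Lce1a1: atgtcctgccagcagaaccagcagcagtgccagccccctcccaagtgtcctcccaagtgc
Lce1a2: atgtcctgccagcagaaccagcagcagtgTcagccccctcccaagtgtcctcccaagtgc
Lce1b: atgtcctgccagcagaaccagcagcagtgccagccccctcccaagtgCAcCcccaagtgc
Lce1d: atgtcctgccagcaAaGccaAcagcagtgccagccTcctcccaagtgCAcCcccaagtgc

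Over these 60 bases, Lce1a2 differed from Lce1a1 at 1 base, Lce1b at 3 and Lce1d at 7. A read from such a stretch may have been assigned to the wrong copy, so values of single Lce1 genes are uncertain beyond their replicate spread. Of the 50-base words of a Lce1 gene's transcripts, a median of 21.7% (0 to 27.1%) also occurred in another gene, against a median of 7.24% (0 to 96.5%) for Sprr2 genes. Lor, Crct1, Lce1m, Lce6a, Sprr1a, Sprr1b and Sprr2k shared none. Of the 12 genes that fell, 5 shared no such word and 7 did.

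Loricrin is a glycine-rich protein and a main building block of the envelope. Lor (chromosome 3, 92080271 to 92083142, minus strand) had 20.9, 24.8 and 49.1 FPKM in mutant libraries, against 86.0, 48.8 and 94.8 FPKM in WT libraries. Mutant replicate 3 lay just over WT replicate 2, so the groups overlapped by these 2 libraries. Lor fell, with a log2 fold change of -1.29 (SE 0.336, limma adjusted p = 0.0155). The call was lost without mutant replicate 2 (adjusted p = 0.0640) and without WT replicate 1 (adjusted p = 0.0574). Involucrin, the early scaffold, was low: Ivl had 1.65, 2.18 and 4.23 FPKM in mutant libraries, against 3.68, 2.31 and 3.56 FPKM in WT libraries. Its groups overlapped and it did not pass the test (log2 fold change -0.23, adjusted p = 0.482; 0.01 with libraries scaled to the same total FPKM).

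Crct1 (chromosome 3, 93014205 to 93015686, minus strand) lies beside Lce1m (93017807 to 93019060, minus strand), at the far end of the Lce cluster. Crct1 had 2.31, 3.06 and 9.22 FPKM in mutant libraries, against 22.02, 11.7 and 17.5 FPKM in WT libraries. Lce1m, a late envelope gene, had 2.02, 3.18 and 4.64 FPKM in mutant libraries, against 13.5, 7.37 and 14.02 FPKM in WT libraries. In both genes every mutant value was lower than every WT value. Crct1 fell by 1.77 on the log2 scale (SE 0.401, adjusted p = 0.00861) and Lce1m by 1.56 (SE 0.274, adjusted p = 0.00274), and both passed in each of 14 alternative settings. The Lce1m coding sequence was 49.8% to 59.0% identical to those of the other Lce1 genes, and it shared no 50-base word with another gene.

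Of the 11 Lce genes tested, 9 fell and none rose, beside 22.8% lower and 23.2% higher over all genes tested, and all 11 log2 fold changes were negative (median -0.97, from -1.56 to -0.60). These 11 include Lce6a, Lce1e, Lce1f and Lce1i, which passed the filter only through the WT libraries, and the other 10 Lce genes were too low to be tested. Lce6a, the only member of its subfamily, had 0.448, 0.817 and 1.25 FPKM in mutant libraries, against 2.48, 1.78 and 1.76 FPKM in WT libraries. All its mutant values were lower than its WT values (log2 fold change -0.72, adjusted p = 0.0112).

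Among the Lce1 genes, which encode small cysteine-rich envelope proteins, Lce1a1 had 1.56, 2.08 and 4.35 FPKM in mutant libraries, against 8.22, 4.92 and 8.64 FPKM in WT libraries. Lce1a2 had 1.03, 1.96 and 3.05 FPKM in mutant libraries, against 9.05, 3.77 and 8.16 FPKM in WT libraries. Lce1b had 1.68, 1.57 and 3.19 FPKM in mutant libraries, against 5.70, 3.60 and 6.02 FPKM in WT libraries. In these 3 genes the groups did not overlap, and mutant replicate 3 and WT replicate 2 were the libraries nearest to each other. The log2 fold changes were -1.21 for Lce1a1 (adjusted p = 0.00995), -1.39 for Lce1a2 (adjusted p = 0.00947) and -0.97 for Lce1b (adjusted p = 0.0089). All 3 genes, and Lce6a, passed in each of 13 alternative settings.

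Lce1d, Lce1f and Lce1i also fell, on narrower margins. Lce1d had 0.647, 1.93 and 1.95 FPKM in mutant libraries, against 4.31, 2.44 and 5.53 FPKM in WT libraries (log2 fold change -1.02, adjusted p = 0.0210). Its groups did not overlap, and the call was lost in 5 of 13 alternatives, among them those without mutant replicate 1 (adjusted p = 0.0507), WT replicate 1 (0.0675) or WT replicate 3 (0.0631). Lce1f had 0.0854, 0.595 and 1.05 FPKM in mutant libraries, against 4.51, 1.61 and 1.74 FPKM in WT libraries (log2 fold change -1.16, adjusted p = 0.0206). No mutant value reached a WT value, and the call was lost in 3 of 13 alternatives, among them those without mutant replicate 1 (adjusted p = 0.0614) or mutant replicate 2 (0.0579). Lce1i had 0.582, 0.662 and 1.39 FPKM in mutant libraries, against 1.53, 1.36 and 2.67 FPKM in WT libraries (log2 fold change -0.60, adjusted p = 0.0490). Here mutant replicate 3 lay over WT replicate 2, and the call was lost in 7 of 13 alternatives, which included leaving out mutant replicate 1 (adjusted p = 0.136), mutant replicate 2 (0.144), WT replicate 1 (0.0721) or WT replicate 3 (0.124).

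Lce1c and Lce1e did not pass. Lce1c had 0.674, 1.34 and 3.47 FPKM in mutant libraries, against 4.03, 1.38 and 7.12 FPKM in WT libraries (log2 fold change -0.82, adjusted p = 0.191). Lce1e had 0.345, 0.515 and 0.768 FPKM in mutant libraries, against 2.01, 0.542 and 2.40 FPKM in WT libraries (log2 fold change -0.71, adjusted p = 0.0705). In both, WT replicate 2 lay inside the mutant range, and both passed as lower without that library (Lce1c adjusted p = 0.0482, Lce1e adjusted p = 0.0026). Among Lce3 genes, in human known from wounded and psoriatic skin, Lce3c alone was tested: 1.22, 1.94 and 2.17 FPKM in mutant libraries, against 5.06, 2.44 and 3.24 FPKM in WT libraries (log2 fold change -0.70, adjusted p = 0.0296). The groups of Lce3c did not overlap, but its call was lost in 7 of 13 alternatives, which included leaving out mutant replicate 1 (adjusted p = 0.0897), mutant replicate 2 (0.0656), WT replicate 1 (0.0734) or WT replicate 3 (0.0548).

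**Figure D2:**
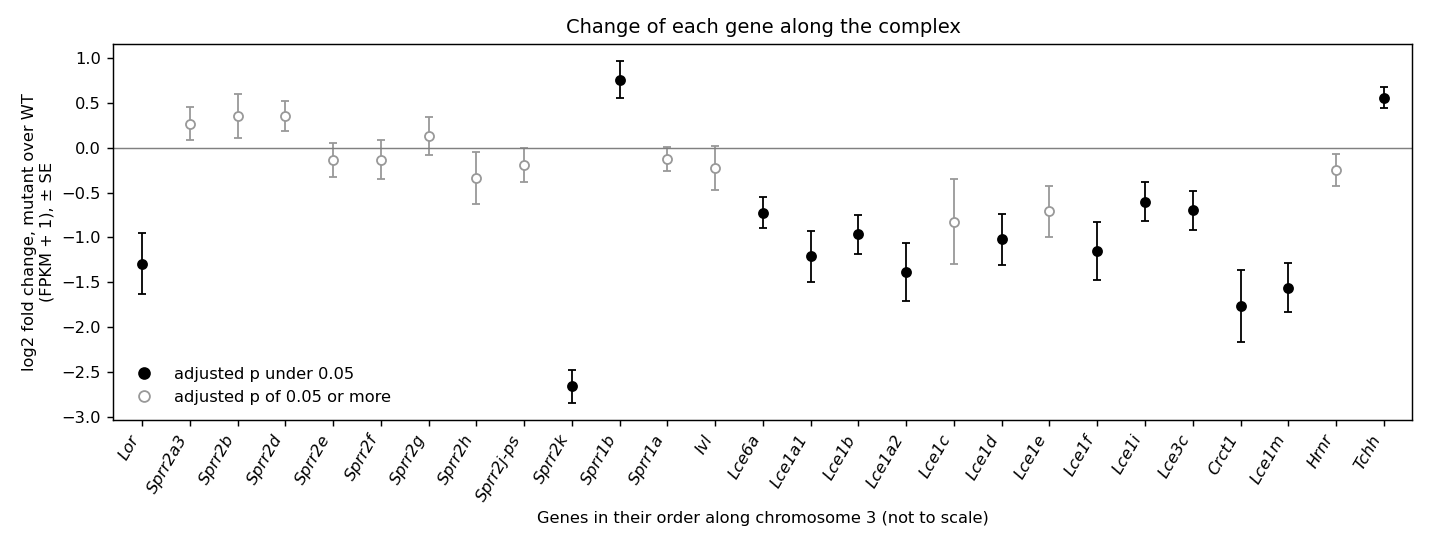
Log2 fold change of FPKM + 1, mutant over WT, with its standard error, for the 27 tested genes in their order along chromosome 3 (not to scale). The genes from Lce6a to Lce1m lie between -1.77 and -0.60, whereas those from Sprr2a3 to Ivl lie around 0 except for Sprr2k and Sprr1b.

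The Sprr genes and Ivl occupy a block next to the Lce block. Of the 12 tested genes from Sprr2a3 to Ivl in chromosome order, 1 fell and 1 rose. Of the 12 from Lce6a to Lce1m, 10 fell and none rose. The latter 12 include Lce6a, Lce1e, Lce1f and Lce1i, which passed the filter only through the WT libraries. No tested gene from Sprr2a3 to Ivl averaged under 1 FPKM in either group. Over all genes tested, 22.8% fell and 23.2% rose. Over the 11 tested Sprr genes the median log2 fold change was -0.13.

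Sprr2k (chromosome 3, 92432582 to 92433927, plus strand), whose protein belongs to the bridging Sprr2 group, had 1.61, 2.81 and 3.59 FPKM in mutant libraries, against 23.1, 20.9 and 20.98 FPKM in WT libraries. Its mutant values were all far under its WT values, and the WT values lay close together. The deposited Cufflinks intervals did not meet either: the highest upper bound was 6.09 FPKM in mutant libraries and the lowest lower bound was 12.2 FPKM in WT libraries. Sprr2k fell, with a log2 fold change of -2.66 (SE 0.181, adjusted p = 2.87e-05), the most negative among the 27 genes. It passed in each of 14 alternatives, with adjusted p-values from 2.04e-06 to 0.000486. A two-sided exact permutation test of 3 against 3 libraries can give no p-value below 0.1.

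None of the other 8 Sprr2 genes tested passed. Sprr2g, annotated as a polymorphic pseudogene, had 20.6, 19.8 and 17.9 FPKM in mutant libraries, against 24.9, 12.2 and 18.01 FPKM in WT libraries (log2 fold change 0.13, adjusted p = 0.640). Sprr2d had 14.8, 14.4 and 14.3 FPKM in mutant libraries, against 14.2, 8.08 and 11.98 FPKM in WT libraries (log2 fold change 0.35, adjusted p = 0.113). The mutant values of Sprr2d all lay over its WT values, and it passed as higher in 3 of 14 alternatives, among them the one without WT replicate 1 (adjusted p = 0.0311). Sprr2h had 9.52, 6.02 and 6.65 FPKM in mutant libraries, against 15.3, 5.98 and 9.06 FPKM in WT libraries (log2 fold change -0.34, adjusted p = 0.361). Sprr2a3 had 8.44, 5.65 and 10.1 FPKM in mutant libraries, against 7.40, 6.29 and 5.50 FPKM in WT libraries (log2 fold change 0.27, adjusted p = 0.256). It passed as higher without mutant replicate 2 (adjusted p = 0.0324) and with libraries scaled to the same total FPKM (adjusted p = 0.0165). Of its 50-base words, 61.1% occurred in another gene, so its level is uncertain.

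Sprr2b had 4.34, 4.14 and 5.42 FPKM in mutant libraries, against 5.43, 2.002 and 3.41 FPKM in WT libraries (log2 fold change 0.35, adjusted p = 0.273), and passed as higher without WT replicate 1 (adjusted p = 0.0346). Its groups overlapped, as did those of the 3 genes that follow. Sprr2e had 1.78, 2.66 and 1.54 FPKM in mutant libraries, against 2.79, 1.49 and 2.64 FPKM in WT libraries (log2 fold change -0.14, adjusted p = 0.589). Sprr2f had 0.975, 1.51 and 1.56 FPKM in mutant libraries, against 2.25, 0.815 and 1.85 FPKM in WT libraries (log2 fold change -0.13, adjusted p = 0.638). Sprr2j-ps had 1.12, 1.12 and 1.77 FPKM in mutant libraries, against 2.52, 1.29 and 1.30 FPKM in WT libraries (log2 fold change -0.19, adjusted p = 0.441). The signs of Sprr2e, Sprr2f and Sprr2j-ps turned positive with libraries scaled to the same total FPKM. Summed over the 11 Sprr2 genes other than Sprr2k, mutant libraries held 59.1 ± 3.05 FPKM and WT libraries 56.2 ± 18.8 FPKM (SD, n = 3 each).

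The Sprr1 genes encode bridging proteins that are known to be induced in stressed and wounded epidermis. Sprr1b (chromosome 3, 92436809 to 92438779, minus strand) is the next member after Sprr2k. It had 63.6, 49.4 and 49.9 FPKM in mutant libraries, against 38.9, 21.7 and 36.7 FPKM in WT libraries. All mutant values lay over all WT values, and Sprr1b rose, with a log2 fold change of 0.76 (SE 0.207, adjusted p = 0.0188), 1.67-fold by mean FPKM. The call was lost without mutant replicate 1 (adjusted p = 0.0617), and without WT replicate 2 the log2 fold change was 0.50. Sprr1a had 136, 118 and 133 FPKM in mutant libraries, against 167, 115 and 146 FPKM in WT libraries. Its groups overlapped and it did not pass (log2 fold change -0.13, adjusted p = 0.459; 0.20 with libraries scaled to the same total FPKM). The Sprr1a and Sprr1b coding sequences were 78.4% identical and shared no 50-base word.

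Among the S100-fused genes, trichohyalin, a protein of the hair follicle's inner root sheath and of tongue epithelium, was the only one that rose. Tchh (chromosome 3, 93442330 to 93449077, plus strand) had 3.003, 3.17 and 2.32 FPKM in mutant libraries, against 1.43, 1.52 and 1.83 FPKM in WT libraries. The groups did not overlap, and the log2 fold change was 0.56 (SE 0.115, adjusted p = 0.00559), 1.78-fold by mean FPKM. Of 4 inner root sheath keratins tested of 6, Krt28 rose and Krt25 fell (the Krt25 call was lost with libraries scaled to the same total FPKM, adjusted p = 0.141), and the summed level of the 6 was 5.64 to 7.13 FPKM in mutant libraries and 4.51 to 8.24 FPKM in WT libraries. Hornerin, a filaggrin-like protein, did not pass: Hrnr had 0.880, 0.923 and 1.63 FPKM in mutant libraries, against 1.92, 1.05 and 1.68 FPKM in WT libraries (log2 fold change -0.25, adjusted p = 0.276), with overlapping groups.

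The 14 detected genes under the filter did not exceed 2.09 FPKM in any library. In a fit with no filter, in which 14.1% of 18122 genes were called lower and 13.8% higher, 2 of the 14 were lower and 1 was higher. Flg2, filaggrin-2, had 0.193, 0.181 and 0.334 FPKM in mutant libraries, against 0.813, 0.651 and 0.833 FPKM in WT libraries (log2 fold change -0.52, adjusted p = 0.00265). Lce3d was listed at 0 in all 3 mutant libraries, against 0.301, 0.618 and 0.525 FPKM in WT libraries (adjusted p = 0.00325). Crnn, cornulin, had 0.215, 0.337 and 0.137 FPKM in mutant libraries, against 0, 0.0775 and 0.0661 FPKM in WT libraries (log2 fold change 0.23, adjusted p = 0.0378). In these 3 genes the mutant values lay wholly to one side of the WT values. At such levels a value of 0 may mean a few missed fragments, and 49.3% of the 50-base words of Lce3d occurred in another gene.

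The remaining low genes did not pass in that fit. Lce1g had 0.426, 0.122 and 0.340 FPKM in mutant libraries, against 1.35, 0.537 and 2.09 FPKM in WT libraries (adjusted p = 0.0556). Lce1l had 0.282, 0.749 and 0.419 FPKM in mutant libraries, against 0.807, 0.472 and 0.804 FPKM in WT libraries (adjusted p = 0.337). The groups of Lce1g did not overlap, and those of Lce1l did. Lce3e had 0, 0 and 0.121 FPKM in mutant libraries, against 0, 0.137 and 0.232 FPKM in WT libraries. Rptn, repetin, had 0.243, 0.166 and 0.198 FPKM in mutant libraries, against 0.179, 0.168 and 0.383 FPKM in WT libraries. Their groups overlapped, and Rptn shares exon sequence with the overlapping gene Gm37857 on the same strand.

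Sprr2i had 0, 0.211 and 0.354 FPKM in mutant libraries, against 1.04, 0.133 and 0.340 FPKM in WT libraries. Sprr2a1 had 0.0783, 0.118 and 0.102 FPKM in mutant libraries, against 0.0486, 0.0495 and 0.155 FPKM in WT libraries, and Sprr2a2 lay no higher than it in any library. The Sprr2a1 and Sprr2a2 coding sequences are identical and their annotated exons overlap, so their values cannot be told apart. Sprr4 was listed above 0 in only 2 libraries, mutant replicate 3 at 1.12 FPKM and WT replicate 2 at 1.28 FPKM. Lce1h, Lce1j and Lce1k did not exceed 0.56 FPKM in any library. Lce3a, Lce3b, Lce3f, Sprr3 and Tchhl1 were listed at 0 in all 6 libraries; the coding sequence of Lce3f was 99.3% identical to that of Lce3d.

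The Lce genes, Lor and Crct1 shared an order of libraries, which other genes had too. Mutant replicate 3 was the highest mutant library in all 13 of them that were tested, and WT replicate 2 was the lowest WT library in 12. Both held in 12 of the 13, against 7.81% of all genes tested, in which mutant replicate 3 was highest in 42.8% and WT replicate 2 lowest in 22.9%. These genes share libraries, and some share reads, so they are not independent counts. The 11 Sprr genes tested had the same lowest WT library in 10 cases, but mutant replicate 3 was their highest mutant library in 5. Of the 3 other genes tested, Ivl and Hrnr had both features, as did 7 of 24 other cornification genes tested. The tests of single Lce genes are therefore not independent of each other.

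**Figure D3:**
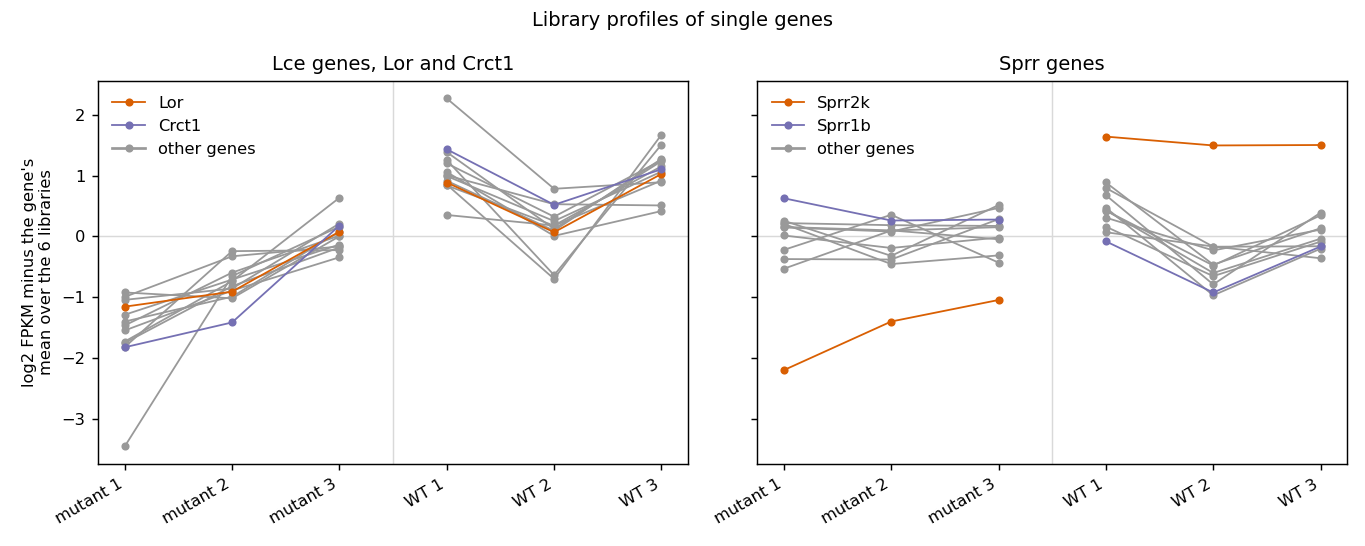
Log2 FPKM of each tested gene minus its mean over the 6 libraries (vertical axis), by library (horizontal axis), for the Lce genes, Lor and Crct1 (left) and the Sprr genes (right). Lines join the values of 1 gene and libraries have no order; in the Lce genes, Lor and Crct1, mutant replicate 3 is the highest of the mutant libraries and WT replicate 2 is the lowest of the WT libraries for nearly every gene.

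Ratios of genes within a library do not depend on how libraries were scaled to each other. The ratio of Sprr1b to Sprr1a was 0.467, 0.418 and 0.375 in mutant libraries, against 0.233, 0.189 and 0.252 in WT libraries. The ratio of Sprr2k to the sum of the other Sprr2 genes was 0.0261, 0.0504 and 0.06 in mutant libraries, against 0.304, 0.544 and 0.386 in WT libraries. The ratio of the summed Lce genes to the summed Sprr1 genes was 0.0586, 0.11 and 0.157 in mutant libraries, against 0.309, 0.248 and 0.362 in WT libraries. In these 3 ratios the groups did not overlap. Among all single genes tested, 26.9% were lower and 29.1% higher in mutant libraries without overlap. The ratios were not tested, were formed with the values of their genes known, and do not tell which gene of a ratio changed. The ratio of Lor to the summed Lce genes was 1.78, 1.35 and 1.71 in mutant libraries, against 1.35, 1.44 and 1.44 in WT libraries (1.62 ± 0.232 in mutant and 1.41 ± 0.0491 in WT libraries, SD, n = 3 each), with overlapping groups. The ratio of Crct1 to Lce1m was 1.14, 0.964 and 1.99 in mutant libraries, against 1.63, 1.59 and 1.25 in WT libraries, also with overlap.

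**Figure D4:**
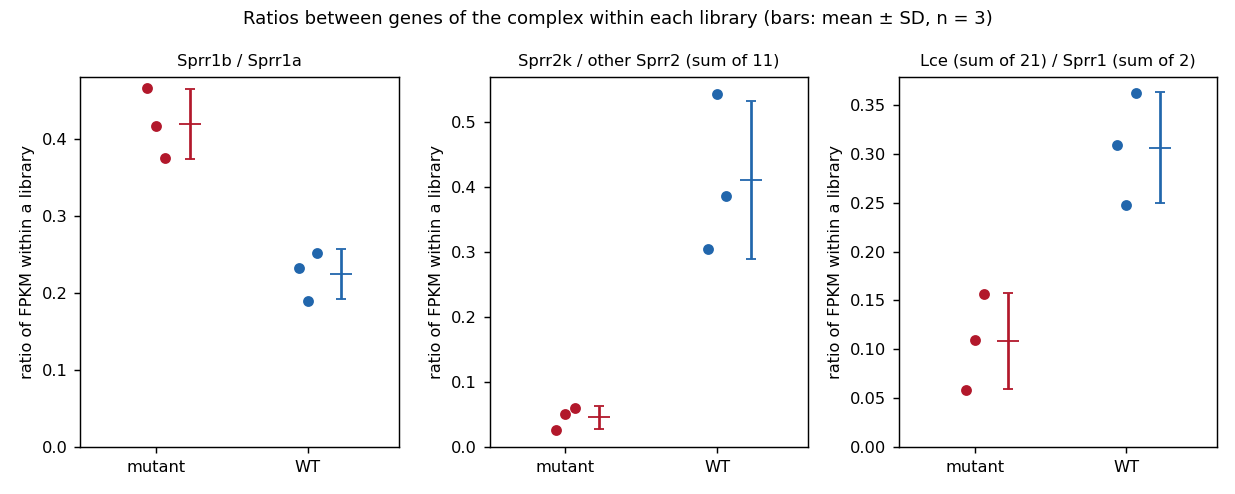
Ratios of FPKM within each library for Sprr1b over Sprr1a, Sprr2k over the other 11 Sprr2 genes, and the summed Lce over the summed Sprr1 genes, with mutant libraries left of WT libraries. Points are libraries and bars show the mean ± SD (n = 3). The Sprr1b ratio averages 0.42 in mutant and 0.225 in WT libraries, the Sprr2k ratio 0.0455 in mutant and 0.412 in WT libraries.

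AP-1 is known to act on the promoters of involucrin, loricrin and several Sprr genes. RefSeq promoters, from 250 bases before to 50 bases after the start, were matched for 42 of the 46 genes, and Crct1, Lce1f, Sprr2g and Sprr2j-ps had none. TGANTCA on either strand occurred in 15 of the 42 (35.7%), against 7.81% of the 32851 promoters of the table. It was in 9 of 14 Sprr promoters and in those of Lor and Ivl, in 4 of 6 S100-fused promoters (Crnn, Flg2, Rptn and Tchhl1), and in 0 of 20 Lce promoters. In Sprr2b, Sprr2d, Sprr2e, Sprr2f, Sprr2h and Sprr2i the match lay 193 to 198 bases before the start, and Sprr2k, alone of the Sprr2 genes with an entry, held another match 182 bases before it. Of the 17 matches, 3 overlapped another motif that was searched: a match to TGANNNNGC, the antioxidant element, in Sprr1a and in Flg2, and a match to CACCC, the KLF core, in Sprr1a. No match says only that these letters are not in this window, and a match is not a bound site.

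**Figure D5:**
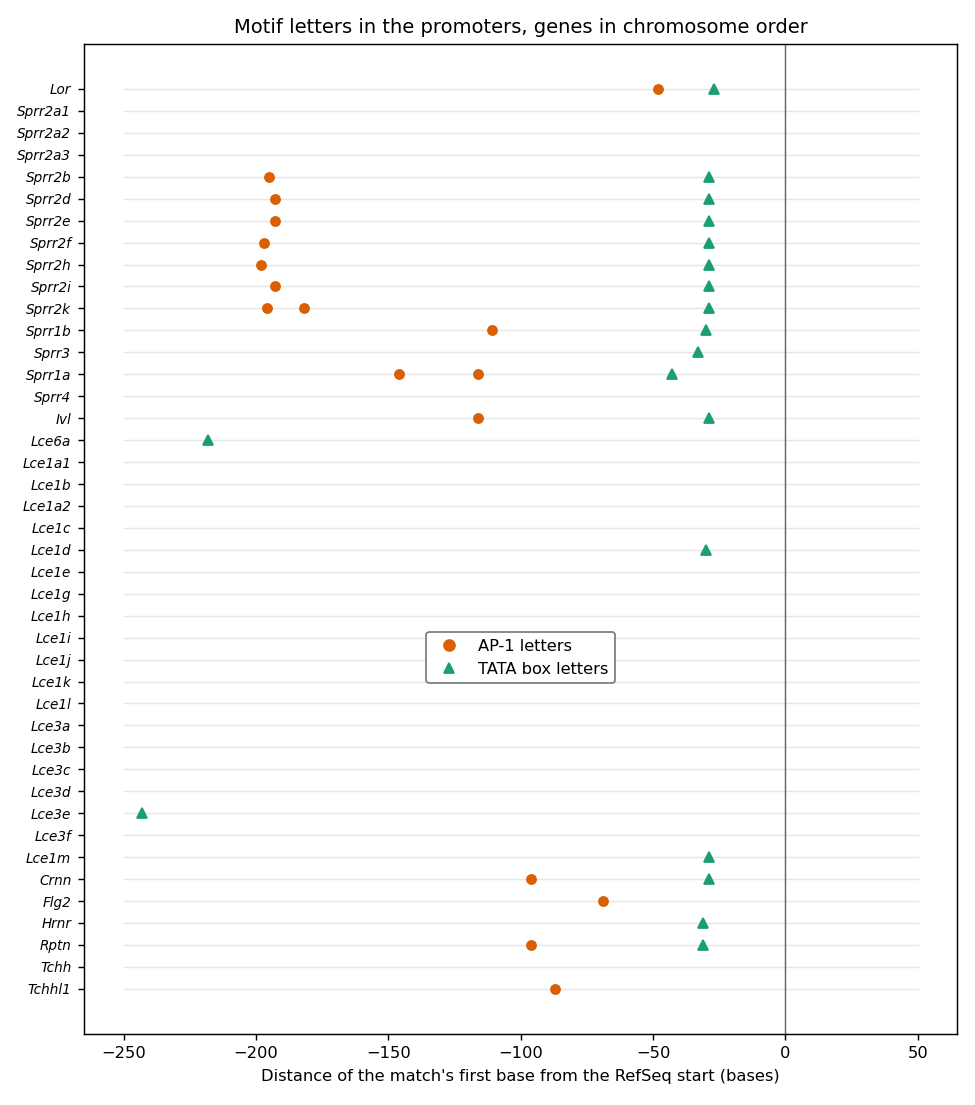
Positions of AP-1 letters (circles) and TATA box letters (triangles) relative to the RefSeq start, in bases, for the 42 genes with a promoter entry, in chromosome order. AP-1 letters stand near -195 in most Sprr2 genes and are missing from the 20 Lce rows.

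TATAAA occurred in 19 of the 42 promoters (45.2%), against 13.6% of all promoters, with 10 of 14 in Sprr and 4 of 20 in Lce genes. The KLF core CACCC was in 21 of the 42, against 57.5% of all promoters, and the ETS core AGGAAG in 22 of the 42, against 35.4%. AACCNGTT, read by Grhl factors, was in 1 of the 42, against 2.09% of all promoters. The antioxidant element TGANNNNGC was in 24 of the 42, against 41.3%.

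Transcription and chromatin factors known to act on these genes moved in both directions: of 32 tested, 13 rose and 7 fell, with a median log2 fold change of 0.11, beside 23.2% higher and 22.8% lower over all genes tested. Ets1, an ETS factor that holds back keratinocyte differentiation in mouse skin, fell (log2 fold change -3.01), and Zfp750, a zinc finger factor that drives late differentiation, rose (2.34). Grhl3, a factor needed for the epidermal barrier, rose (0.92). Of 7 Jun and Fos genes, a subset chosen after the values were seen, Fos (0.85) and Fosb (0.75) rose, and Fosl1 (-0.72) fell. Jun fell by 0.33 on the log2 scale, but its change turned to 0.16 under quantile normalization, with no call. With libraries scaled to the same total FPKM, 18 of the 32 factors were called higher and 5 lower.

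Of 24 tested of 26 enzymes, scaffolds and other cornification proteins, 5 rose and 6 fell, with a median log2 fold change of -0.02, shares near the 23.2% higher and 22.8% lower of all genes tested (11 higher, 4 lower and a median of 0.28 with libraries scaled to the same total FPKM). Tgm3, a transglutaminase that cross-links the envelope, rose (1.70), as did Ppl, periplakin, a scaffold of the envelope (0.83). Klk5, a protease of corneocyte shedding (-0.83), and Aloxe3, a lipoxygenase of the barrier lipids (-1.22), fell. Of 13 tested of 18 other genes of the complex, mostly S100 genes, 1 rose and 8 fell, with a median of -0.54. S100a9, an antimicrobial and inflammatory S100 protein, was the one that rose (0.79). S100a6 (-0.69), S100a10 (-0.77) and Pglyrp3, a peptidoglycan recognition protein (-0.95), fell. With libraries scaled to the same total FPKM, 3 of these 13 genes were called higher and 6 lower, with a median of -0.25. Quantile normalization gave 3 higher and 7 lower. S100a11, among those that fell (-0.40), was called higher there (0.30).

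The sorted cells' identity was checked against marker lists. Beside the counts below, 22.8% of all genes tested were called lower and 23.2% higher. Basal markers summed to 24016 to 27451 FPKM in mutant libraries and 26773 to 27099 FPKM in WT libraries, and 10 of 13 fell and 1 rose. The 46 envelope genes together summed to 279 to 343 FPKM in mutant libraries and 297 to 484 FPKM in WT libraries. Spinous layer markers summed to 11147 to 13801 FPKM in mutant libraries and 3092 to 3868 FPKM in WT libraries, and 9 of 10 rose. By contrast, 9 of the 11 Lce genes tested fell, though 4 of the 11 were tested only through their WT values. Keratins of periderm and stressed epidermis, a state in which Sprr1b is known, summed to 1654 to 1841 FPKM in mutant libraries and 2334 to 2889 FPKM in WT libraries, with 2 of 5 tested higher and 2 lower. Fibroblast markers summed to 303 to 338 FPKM in mutant libraries and 370 to 504 FPKM in WT libraries, and Dcn, 1 of 6 tested, fell. Melanocyte markers summed to 10.6 to 12.95 FPKM in mutant libraries and 15.5 to 21.1 FPKM in WT libraries, with 2 of 3 tested lower. Skeletal muscle markers summed to 9.25 to 10.4 FPKM in mutant libraries and 13.5 to 23.1 FPKM in WT libraries, with 2 of 3 tested lower. Immune markers summed to 5.16 to 5.66 FPKM in mutant libraries and 5.27 to 8.03 FPKM in WT libraries, with 1 of 2 tested lower and the Langerhans cell marker Cd207 listed at 0 in all 6. Endothelial markers, none of them tested, summed to 0.581 to 1.498 FPKM in mutant libraries and 1.10 to 2.39 FPKM in WT libraries. Erythroid markers summed to 1.63 to 31.6 FPKM in mutant libraries and 23.8 to 93.5 FPKM in WT libraries, with 1 of 2 tested lower. With libraries scaled to the same total FPKM, 7 of 13 basal markers were called lower and 2 higher. Under that scaling 10 of 10 spinous markers were higher, and no fibroblast, melanocyte or immune marker was called. Muscle markers kept as many lower calls (2 of 3). Of the erythroid markers 1 of 2 was again lower, but the gene differed: Alas2 lost its call (limma adjusted p = 0.0661) and Hba-a1 gained one (0.0463). Of the periderm and stress keratins, 2 were higher and 1 lower. The sums above were not scaled this way. The part of these cells and states in the differences above was not tested.

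Read totals behind the values are unknown. The summed FPKM was 542210 to 651769 in mutant libraries and 656761 to 767148 in WT libraries, and depth relative to WT replicate 1, estimated from the steps between low values, was 1.11 to 1.24 in mutant libraries and 0.981 to 1.15 in WT libraries. The deposited interval of the 27 tested genes had a median halfwidth of 63.6% to 83.4% of the value in mutant libraries and 50.7% to 61.4% in WT libraries, so single values of low genes are loose. When each library was scaled to the same total FPKM, the median of all genes tested moved by 0.29 on the log2 scale, and 86.5% of all calls were then higher, against 50.5% in the test above. Under that scaling 10 of the 27 genes were called lower and 4 higher (Sprr1b, Sprr2a3, Sprr2d and Tchh).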

How the data were processed

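RNA from cells sorted for high α6 integrin was sequenced in 3 mutant and 3 WT samples. The deposited values are FPKM per gene, each with an interval and a status, per the file headers. The authors made the FPKM values with TopHat and Cufflinks, per the submitters' processing notes; the sources used here do not give settings, strand handling or library scaling. Those notes name mm9, but all 46 genes overlapped the gene of that name in the GENCODE M21 annotation of GRCm38, and 31 had the same start, so positions are read as GRCm38, with 1 added to each start. Read totals are unknown, so the depth behind a value cannot be given. Mutant and WT libraries were compared by limma 3.58.1 (R 4.3.3) on log2(FPKM + 1), over the 11385 genes averaging 1 FPKM or more, with a trend in the variance prior, genotype as the only term and Benjamini-Hochberg adjustment (threshold 0.05). The procedure was tested on simulated data that held no scaling differences between libraries, so that test says nothing on the effect of scaling here. Whether the replicate numbers pair the samples is not known, and the main test did not pair them. Tables, motif searches and figures were made with Python 3.11.15, pandas 2.3.3, Biopython 1.88 and matplotlib 3.10.9. Every gene of the complex is named, tested ones with all values; of each other list, up to 4 genes were eligible, called ones first by smallest p. Not every eligible gene or motif is reported here. The genes, lists and tests were chosen with earlier results of these data known. Alternatives covered the pseudocount (0.1), the filter, library scaling, the variance prior, library weights, a replicate block and leaving out each library.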

Additional observations from a re-analysis of the deposited data

How the results depend on the processing

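Over the 46 genes, 12 called lower and 2 called higher became 4 and 1 with a minimum mean of 5 FPKM, where only 10 of the genes were tested, and the number called higher became 4 with libraries scaled to the same total FPKM and 4 with library weights. Leaving out 1 library gave 8 to 14 called lower, 1 to 4 called higher, and 3866 to 5081 genes called in the whole table, against 5234 with all libraries. Genes that did not pass changed sign as follows. With the same total FPKM, the log2 fold change was 0.0051 for Ivl, 0.20 for Sprr1a, 0.088 for Sprr2e, 0.051 for Sprr2f and 0.00015 for Sprr2j-ps. Quantile normalization gave 0.12 for Sprr1a, and library weights gave 0.26 for Sprr2e and 0.19 for Sprr2f. Leaving out 1 library gave -0.38 to 0.037 for Sprr2f, -0.12 to 0.37 for Sprr2g and -0.32 to 0.014 for Sprr2j-ps. The cause of these changes was not tested. Of the 12 genes called lower, 7 (Sprr2k, Lce6a, Lce1a1, Lce1a2, Lce1b, Crct1 and Lce1m) passed in every alternative that tested them, as did Tchh of the 2 called higher.

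With the replicate number as a block, 3798 genes of the table were called, and 10 of the 46 genes were called lower and 2 higher: Lce1f (adjusted p = 0.0519) and Lce3c (0.0645) lost the call. Deviations of same-numbered samples correlated at 0.127, 0.122 and -0.00735 across genes. Mutant replicates 1 and 2 correlated best with the WT replicate of the same number. Mutant replicate 3 correlated best with WT replicate 2, but only at 0.0315. The correlations are weak, so whether the numbers pair the samples was not settled. Read totals are unknown, so what depth limits in the low Lce and Sprr genes was not measured.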
